A study of Caenorhabditis elegans with 12 samples.

Results

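The transcriptional response to PA14, a pathogenic strain of Pseudomonas aeruginosa, was examined in the libraries labelled stt-3 RNAi. These were 3 PA14 libraries and 3 E. coli libraries, that is, 6 of the 12 libraries of the series, and the question was what the response to PA14 still contained in these animals. A gene was examined when 3 or more of these 6 libraries reached a value of 10, which held for 12219 of 17430 genes. The 4 groups were labelled stt-3 RNAi on PA14, labelled stt-3 RNAi on E. coli, control RNAi on PA14 and control RNAi on E. coli, with 3 libraries each. All were whole bodies of wild-type N2 animals labelled as adult, raised until the L4 larval stage on RNAi bacteria labelled control or stt-3. The animals were then washed and kept for 12 h either on PA14 or on the RNAi bacteria they had come from, which are E. coli. RNAi by feeding was given to whole animals, and its effect in single tissues was not measured here. The animals on PA14 no longer fed on RNAi bacteria in these 12 h. The values are the normalized values deposited by the authors (a score and not read counts), so that the sequencing depth is unknown. Changes are log2 differences of value + 1, so that those of low genes come out too small, and a gene was called if it changed more than 2-fold at an adjusted p (limma, Benjamini-Hochberg) under 0.05. The labels do not say that the replicates were separate cultures, so that the p values measure the spread between libraries, which may be technical.

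STT3 is the catalytic subunit of the oligosaccharyltransferase (OST), the enzyme complex of the endoplasmic reticulum (ER) that attaches N-linked glycans to newly made proteins. When C. elegans feeds on PA14, the bacteria reach the intestine, where the p38 MAP kinase PMK-1 acts through the transcription factor ATF-7 to induce secreted effectors such as lectins and lysozymes. A parallel branch, in which the bZIP factor ZIP-2 induces genes such as irg-1 and irg-2, responds to the block of host translation by a toxin of PA14.

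The targeted gene itself was not lower. The values of stt-3 (WBGene00020437, chrIII:6248637-6251607 in WBcel235) were 469, 513 and 551 on PA14, against 461, 488 and 467 on E. coli. In control RNAi they were 367, 398 and 434 on PA14, against 421, 398 and 434 on E. coli. The study reported by qRT-PCR that feeding with stt-3 RNAi bacteria lowered the stt-3 mRNA, which these values do not show. The 6 libraries are therefore called by their label throughout. Another OST gene, ostd-1 (chromosome I), averaged 104 ± 8.72 on PA14 and 126 ± 11.6 on E. coli (SD, n = 3 each), while its means in control RNAi were 763 ± 92.9 on PA14 and 642 ± 21.8 on E. coli (SD, n = 3 each). Since the library kit does not mark strand, genes whose exons overlap cannot be told apart here, but no such overlap is annotated for ostd-1. It is annotated for several genes named below, among them oac-20, asp-2, asah-2, lys-8, clec-85, clec-3, enpl-1, col-74 and col-149. Reads of their neighbours may therefore be part of their values. PA14 itself changed none of the 6 OST genes (limma, 1 of 6 at an unadjusted p under 0.05): their log2 fold changes lay between -0.27 and 0.13, and ZK686.3, ribo-1, ostb-1 and dad-1 had 0.13, -0.03, -0.12 and 0.11.

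The 6 libraries separated by bacteria. The first principal component held 85.23% of the variance, and libraries of the same group correlated more closely (r from 0.9601 to 0.989 across genes) than PA14 libraries with E. coli libraries (0.7999 to 0.9093). One library stood apart: E. coli replicate 3 lay at -43.49 on this component, while the other E. coli replicates lay at -75.59 and -87.51.

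PA14 raised 951 genes (7.78% of those tested) and lowered 1581 (12.9%) in the libraries labelled stt-3 RNAi, so that 37.6% of the called genes were higher. The median log2 fold change of all genes tested was 0.07. Counts of the gene lists below are to be read against the 7.78% and 12.9% of all genes, and a list near these shares does not stand out. Of the 12219 genes tested, 5979 had an unadjusted p under 0.05 for the PA14 change (limma). The unadjusted counts of PA14 changes, for the OST genes and the lists below, are to be read against this number. It does not apply to the unadjusted counts given for differences from control RNAi. Without E. coli replicate 3, 1100 genes were called higher and 1794 lower, and with the 2-fold change itself as the null hypothesis (limma treat) 288 were higher and 1119 lower. In control RNAi, fitted on its own 6 libraries over the same genes, 1245 (10.2%) were higher and 1797 (14.7%) lower. The comparisons share no library. Since the genes were chosen by the labelled libraries alone, genes that reached the value of 10 only in control RNAi were left out. The share of the control RNAi response that is common to both can therefore come out too high. Most of the response was common to both: 718 genes were higher in both, which is 75.5% of the genes higher here and 57.7% of those higher in control RNAi. Among the lower genes 1462 were common, 92.5% of those here and 81.4% of those in control RNAi. The shares of all genes tested that were called in both were 5.88% (higher) and 12.0% (lower). Across genes the log2 fold changes of the comparisons had a Pearson r of 0.913, which is a description, since genes are not independent replicates.

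**Figure D1:**
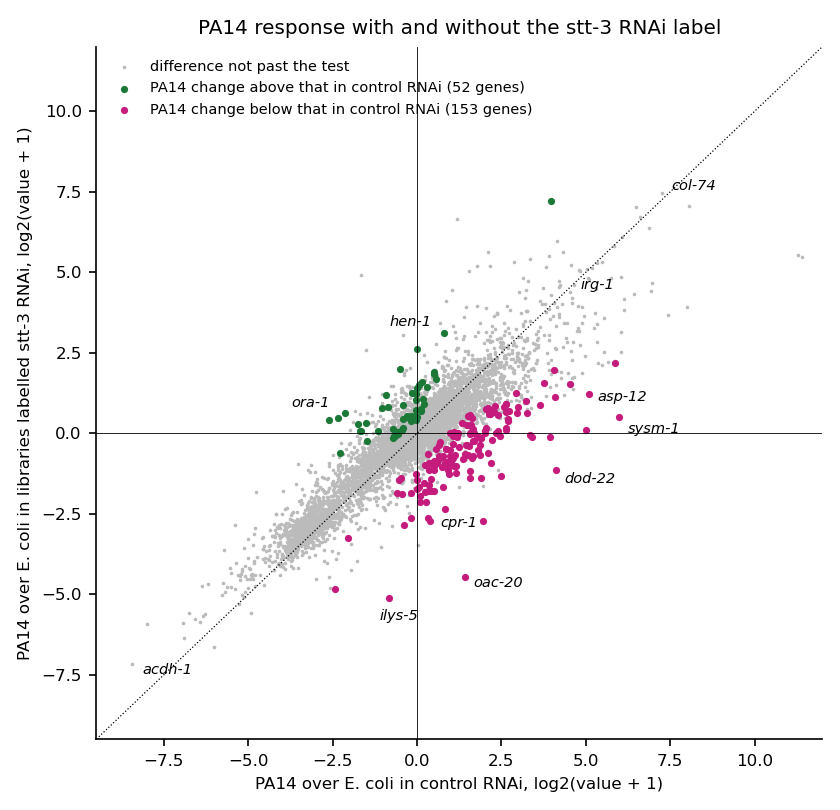
Log2 fold change of PA14 over E. coli for each of the 12219 genes in the libraries labelled stt-3 RNAi (vertical axis) and in control RNAi (horizontal axis), both on log2(value + 1). Each point is a gene, and the dotted line marks equal change. Coloured points are genes that passed the test of the difference. Their signed change in the labelled libraries lay above that in control RNAi in 52 genes and below it in 153. Most of the 153 lie right of 0 and below the dotted line.

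Whether the PA14 change differed between the RNAi groups was tested for each gene over all 12 libraries (limma, interaction). The change lay above that of control RNAi in 52 genes (0.426%) and below it in 153 (1.25%). Of the 233 genes called higher here and not in control RNAi, 15 passed this test, and of the 517 called higher in control RNAi and not called here, 82 did. Of the 109 genes lower here alone, 33 passed. There were 10 genes called lower here and higher in control RNAi, and none the other way round. They were oac-20, clec-70, lipl-1 and nlp-28, described below, and asah-1, asah-2, oac-14, Y39B6A.1, T26C12.2 and E04F6.15. The difference passed its own test in all of them but oac-14 (limma, adjusted p = 0.0731). The calls of Y39B6A.1, T26C12.2 and oac-14 here were lost without 4, 3 and 3 of the 6 single libraries (adjusted p up to 0.114, 0.0634 and 0.0979). The counts of differences depended on single libraries, with 13 to 77 genes above and 76 to 215 below when each of the 12 libraries was left out (the lowest, 13 above and 76 below, came without PA14 replicate 2 of the labelled libraries and PA14 replicate 3 of control RNAi).

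Defining markers of intestine, muscle, pharynx, neurons, epidermis, sperm and oocytes were detected in all 6 libraries. The summed value of the 6 intestinal markers was 2683, 2433 and 3234 on PA14, against 5344, 4120 and 2440 on E. coli, and these groups overlapped. The largest part of each sum was act-5, with 1895, 1681 and 2394 on PA14, against 3883, 2727 and 1231 on E. coli. Of these markers only ifb-2, an intermediate filament gene of the intestine, was called, and it fell (2 were lower without E. coli replicate 3). The sperm markers, all 4 tested of which were lower, summed to 663, 968 and 668 on PA14, against 11524, 11326 and 6764 on E. coli, and the adult epidermal markers, 3 of 3 lower, to 4341, 4953 and 3733 on PA14, against 24773, 30709 and 14054 on E. coli. The adult epidermal sums were mostly those of col-19. Of the 4 larval epidermal markers, 3 were lower and 1 higher (log2 1.95). They summed to 134, 87 and 82 on PA14, against 1051, 2054 and 275 on E. coli, where replicate 3 was the lowest. Of the 3 body wall muscle markers, unc-54 and unc-15, which encode myosin and paramyosin, had log2 fold changes of -1.66 and -1.16 and were called lower. Both calls rested on single libraries: unc-54 was lost without PA14 replicate 2 or 3 (limma, adjusted p up to 0.0651), and unc-15 fell by less than 2-fold without E. coli replicate 2 (-0.93 on the log2 scale). None of the 5 oocyte markers, 3 tested neuronal markers or 2 pharyngeal markers was called, and 1 pharyngeal marker was lower without PA14 replicate 1 or E. coli replicate 1 or 3. In whole animals, fewer cells of a type and less RNA per cell cannot be told apart.

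Among the genes of the p38 pathway, PA14 raised only vhp-1, a phosphatase that acts on MAP kinases, of 12 tested (1 of 12 higher, none lower, median 0.23). Its mean was 88.0 ± 29.2 on PA14 and 37.3 ± 1.53 on E. coli (SD, n = 3 each), and the groups did not overlap. The log2 fold change was 1.16 (limma, adjusted p = 0.00934), and it fell under 2-fold without PA14 replicate 3 (0.92). The kinase gene pmk-1 was nearly level, with values of 47, 43 and 45 on PA14, against 38, 41 and 39 on E. coli. For tir-1, the adaptor at the top of the pathway, the log2 fold change was 0.79 and thus under 2-fold, and nipi-3, a pseudokinase gene, had 0.58.

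The targets of PMK-1 were split. Of the 10 tested, 3 were higher and 1 lower, with a median log2 fold change of 0.88, against 9 higher and 1 lower with a median of 3.39 in control RNAi. In 4 of the 10 the difference itself passed, each time below 0. The list was chosen with earlier results of these data known, and the study itself had selected sysm-1, K08D8.5 and C17H12.8 for qRT-PCR. This count is therefore no independent support. The gene sysm-1 (T24B8.5, WBGene00011979, chrII:9082626-9083193), often used as a reporter of PMK-1 activity, had values of 153, 74 and 174 on PA14, against 177, 40 and 93 on E. coli. In control RNAi these were 14377, 7078 and 10247 on PA14, against 144, 139 and 200 on E. coli. The labelled groups overlapped, while in control RNAi all PA14 libraries lay far above all E. coli libraries, and the difference of the log2 fold changes was -5.47 (SE 0.70, limma, adjusted p = 0.00431). K08D8.5, a CUB-like secreted protein gene, had 79, 67 and 135 on PA14, against 99, 73 and 127 on E. coli, in control RNAi 1509, 784 and 1712 on PA14, against 79, 151 and 137 on E. coli. This was again an overlap in the labelled libraries alone, with a difference of -3.53 (limma, adjusted p = 0.00779). C17H12.8, also CUB-like, had 324, 299 and 778 on PA14, against 459, 353 and 512 on E. coli, in control RNAi 4550, 2314 and 4709 on PA14, against 176, 516 and 499 on E. coli. Its difference of -3.41 (limma, adjusted p = 0.0322) was lost without any 1 of 6 libraries, with an adjusted p of up to 0.0982.

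Other targets of the same list still responded. The lysozyme gene lys-2 had values of 7318, 6338 and 11262 on PA14, against 2703, 1438 and 1675 on E. coli, with no overlap, a 4.31-fold increase (log2 2.11, SE 0.30, limma, adjusted p = 0.00199). For mul-1, a mucin-like gene (F49F1.6), they were 168, 92 and 210 on PA14, against 39, 14 and 17 on E. coli, a 6.75-fold increase (limma, adjusted p = 0.00367). The C-type lectin gene clec-85 rose 2.98-fold, with values of 3485, 2055 and 3410 on PA14, against 1643, 693 and 808 on E. coli. The PA14 libraries of all 3 genes lay above their E. coli libraries. The call of clec-85 was lost without PA14 replicate 1 or 3 (limma, adjusted p up to 0.0583), and the difference of its change from control RNAi was -2.20 (limma, adjusted p = 0.0464, lost without any 1 of 10 libraries, up to 0.129). The test of the difference did not pass for lys-2 (-1.01, adjusted p = 0.427) or mul-1 (-2.07, adjusted p = 0.137). The infection response gene irg-5 had 108, 70 and 298 on PA14, against 21, 25 and 77 on E. coli, where PA14 replicate 2 lay below E. coli replicate 3, and it was not called (limma, log2 1.90, adjusted p = 0.0607). Neither irg-4 (0.72) nor clec-67 (1.05) was called. The 1 lower gene was catp-3 (C09H5.2), which encodes a cation-transporting ATPase, with 38, 28 and 22 on PA14, against 75, 96 and 40 on E. coli, and this call was lost without any 1 of the libraries other than E. coli replicate 3 (limma, adjusted p up to 0.117). It was lower in control RNAi as well (-1.69).

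Effector genes of the branch of ZIP-2 and the C/EBP factors were among the increases. Of its 9 genes, 4 were higher and none lower (median 1.14), 4 were also higher in control RNAi, all of them the same genes, and no difference passed (limma, 1 of 9 at an unadjusted p under 0.05). The effector irg-1 (WBGene00015574, chrV:3523587-3524679) had values of 909, 526 and 1246 on PA14, against 58, 32 and 49 on E. coli, an 18.3-fold increase (limma, adjusted p = 0.000306). For irg-2 they were 177, 116 and 177 on PA14, against 17, 8 and 21 on E. coli, 10.1-fold (limma, adjusted p = 0.000650), and for irg-3 428, 285 and 660 on PA14, against 72, 52 and 88 on E. coli, 6.18-fold (limma, adjusted p = 0.00119). No PA14 library of these genes reached down to an E. coli library. In control RNAi irg-3 had 4053, 1804 and 4133 on PA14, against 165, 204 and 166 on E. coli. Its PA14 and E. coli levels were thus both higher there, and the difference of the changes did not pass at -1.499 (limma, adjusted p = 0.211). The regulator cebp-1 rose 2.21-fold (limma, adjusted p = 0.00614), while zip-2 itself (0.55) was under 2-fold and zip-10 (1.18, adjusted p = 0.153) was not called.

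**Figure D2:**
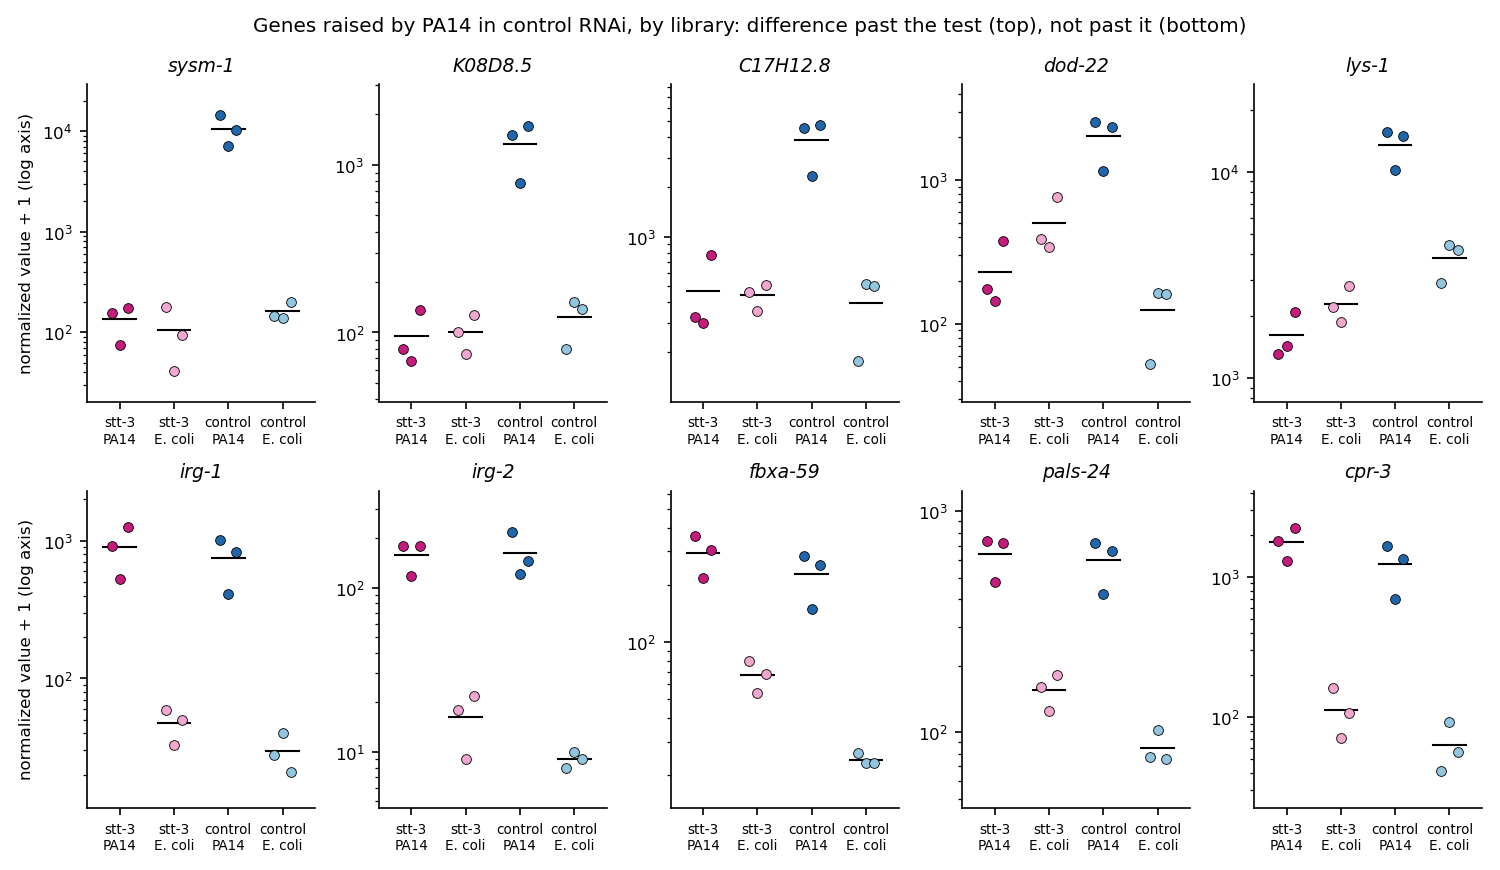
Normalized value + 1 in each library (log axis) for 5 genes whose PA14 change was smaller in the libraries labelled stt-3 RNAi by the test of the difference (top) and 5 for which that test did not pass (bottom). Points are the 3 libraries of each group and lines their means. In the top row the PA14 and E. coli points of the labelled libraries overlap or PA14 lies lower, while in the bottom row PA14 lies above E. coli in both RNAi groups.

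The dod genes, named as targets downstream of DAF-16, include CUB-like proteins of the intestine that respond to pathogens. Of the 9 tested, 4 were higher and none lower here (median 1.24), against 7 higher in control RNAi (median 2.19). For dod-24 the values were 4205, 2730 and 9457 on PA14, against 323, 149 and 371 on E. coli, an 18.2-fold increase (limma, adjusted p = 0.00118). Those of dod-21 were 883, 642 and 5582 on PA14, against 115, 8 and 34 on E. coli, so that PA14 lay above E. coli in every library although its replicates spread widely (log2 5.47, SE 1.12, limma, adjusted p = 0.00963). In control RNAi they were 9369, 2681 and 6962 on PA14, against 0, 2 and 2 on E. coli (log2 11.4, which depends on the pseudocount). The difference of -5.92 did not pass (limma, adjusted p = 0.0731). The neighbour cld-1 rose by nearly as much as dod-21 here (log2 5.54, SE 1.12, limma, adjusted p = 0.00920) and by 11.3 in control RNAi. Its difference of -5.75 did not pass either (limma, adjusted p = 0.0925), and how reads were divided between these genes is uncertain. Both dod-17 (2.27) and dod-19 (1.61) were also higher, and 1 dod gene was called lower without PA14 replicate 3. By contrast dod-22 had 174, 142 and 374 on PA14, against 389, 344 and 764 on E. coli, in control RNAi 2552, 1163 and 2347 on PA14, against 51, 163 and 159 on E. coli. It was thus above its E. coli level on PA14 in control RNAi only, and the difference of -5.26 passed (limma, adjusted p = 0.00685). The difference of dod-23 was -1.57 (limma, adjusted p = 0.0322), which was lost without any 1 of 10 libraries (up to 0.0962).

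C-type lectins bind carbohydrates, and many are secreted upon infection. Of 143 listed, 73 were tested, of which 16 were higher and 18 lower (median 0.44). In control RNAi 31 were higher and 13 lower, and 14 and 13 of the genes were called in both. The largest increase was that of clec-3, with 163, 72 and 199 on PA14, against 5, 2 and 5 on E. coli (limma, adjusted p = 0.000408), and the largest decrease that of clec-117, with 5, 5 and 3 on PA14, against 102, 121 and 61 on E. coli (limma, adjusted p = 0.000282). Neither pair of groups overlapped. The lectin genes clec-266, clec-66 and clec-65 rose with log2 fold changes of 4.01, 1.78 and 1.38. In 8 lectin genes the difference lay below 0, and none lay above. One of these was clec-53, which fell to 2, 2 and 3 on PA14, against 17, 15 and 16 on E. coli, whereas control RNAi had 65, 45 and 49 on PA14, against 29, 32 and 27 on E. coli (difference -3.18, limma, adjusted p = 0.000456). Another was clec-70, with 3, 0 and 2 on PA14, against 19, 11 and 13 on E. coli, in control RNAi 3, 5 and 4 on PA14, against 1, 0 and 0 on E. coli, a low-level gene that was called in opposite directions (difference -4.68, limma, adjusted p = 0.00972). For clec-62 (-2.25) and clec-50 (-1.997) the difference passed without each library in turn. For clec-63 (-1.82), clec-85 and the copies of clec-209 (-1.74), which share reads, it did not, with adjusted p up to 0.0760, 0.129 and 0.138.

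Lysozymes cleave bacterial cell walls. Of the 8 tested, 3 were higher (lys-2, lys-3 and lys-7) and 2 lower (ilys-5 and lys-4), against 5 higher and none lower in control RNAi. The invertebrate-type lysozyme gene ilys-5 (WBGene00017691, chrX:6533490-6536840) had values of 56, 59 and 55 on PA14, against 1875, 2322 and 1823 on E. coli. In control RNAi they were 4052, 2881 and 3984 on PA14, against 5940, 6633 and 6543 on E. coli. Its fall of 34.6-fold (log2 -5.11, SE 0.11, limma, adjusted p = 1.60e-05) thus set the PA14 libraries far below all others. The difference from control RNAi was -4.29 (SE 0.19, limma, adjusted p = 2.89e-06). For lys-1 the values were 1307, 1429 and 2105 on PA14, against 2215, 1872 and 2815 on E. coli, and for lys-8 1051, 1125 and 1131 on PA14, against 1540, 1053 and 1744 on E. coli. In lys-1 PA14 replicate 3 lay among the E. coli libraries, and in lys-8 E. coli replicate 2 lay among the PA14 libraries. In control RNAi both were called higher (1.82 and 1.86), and the differences were -2.34 and -2.22 (limma, adjusted p = 0.00779 and 0.00408). The gene lys-7 had 1095, 1205 and 858 on PA14, against 485, 326 and 711 on E. coli and lys-3 168, 58 and 51 on PA14, against 11, 10 and 42 on E. coli. These calls were lost without 4 and 5 of the 6 single libraries (limma, adjusted p of lys-7 up to 0.0735), so that 1 lysozyme stayed higher without PA14 replicate 1 or 2 or E. coli replicate 1 or 2, and 2 without PA14 replicate 3.

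Saposin-like proteins are small membrane-permeabilizing peptides. Of 23 tested, 6 were higher and 3 lower here, against 11 and 2 in control RNAi. The antimicrobial saposin-like gene spp-2 had 7130, 6247 and 7280 on PA14, against 980, 924 and 3194 on E. coli (log2 2.27, limma, adjusted p = 0.00926), and spp-18 had 2155, 1605 and 1734 on PA14, against 1058, 551 and 716 on E. coli (1.28, adjusted p = 0.00693). For spp-20 the values were 257, 108 and 61 on PA14, against 1, 1 and 6 on E. coli, and its change was the highest of the family (5.31, SE 0.68, limma, adjusted p = 0.00130). All of these PA14 libraries lay above the E. coli libraries. The lower genes were spp-17 (-2.02), spp-4 (-1.86) and spp-23 (-2.71). The difference passed below 0 for spp-8, spp-4 and spp-14 (-1.56, -1.26 and -1.24), in each case lost without some of the 12 libraries (limma, adjusted p up to 0.0955, 0.104 and 0.0760).

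Among 36 small antimicrobial peptide genes (caenacins, defensin-like abf genes, fungus-induced fip and fipr genes and thaumatins), 9 were higher and 6 lower, and no difference from control RNAi passed (limma, 4 of 36 at an unadjusted p under 0.05). The caenacin gene cnc-6 had 90, 26 and 54 on PA14, against 0, 1 and 2 on E. coli (limma, adjusted p = 0.000930), and cnc-2 had 85, 83 and 103 on PA14, against 36, 25 and 29 on E. coli (limma, adjusted p = 0.000707). The gene abf-2, which encodes an antibacterial factor, had 254, 240 and 191 on PA14, against 24, 19 and 43 on E. coli, 8.12-fold higher (limma, adjusted p = 0.000465). No library of one group overlapped the other in these 3 genes. The higher count was 5 without PA14 replicate 1 or E. coli replicate 2 and 6 without PA14 replicate 2, and the lower count was 3 without PA14 replicate 2 or 3 or E. coli replicate 1 or 2. The 6 lower genes were fipr genes, with log2 fold changes from -3.53 (fipr-7) to -1.21 (fipr-9). Of 9 epidermal nlp peptide genes 1 was higher and 3 were lower. Among them nlp-34 rose 3.32-fold, with 1047, 621 and 714 on PA14, against 239, 229 and 230 on E. coli. The value of nlp-28 was 2603, 2025 and 2090 on PA14, against 5027, 3973 and 4674 on E. coli, opposite to control RNAi with 1642, 1538 and 1827 on PA14, against 506, 951 and 968 on E. coli. These groups do not overlap in either RNAi group, and the difference was -2.13 (limma, adjusted p = 0.00779), although the call here was just past 2-fold and fell under it without any 1 of 3 libraries (-0.95). The change of nlp-27 lay above that of control RNAi by 2.04 (limma, adjusted p = 0.0241, lost without any 1 of 7 libraries, up to 0.0699), and nlp-29, an epidermal peptide gene induced by wounding and fungi, was not called (-0.12). Galectins, which bind galactosides, gave 2 higher of 12, lec-11 and lec-12 (1.90 and 1.18), and none lower (1 without PA14 replicate 1 or E. coli replicate 3), against 6 higher and 1 lower in control RNAi.

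Part of the pals and F-box A genes rose, while most F-box A genes were not called. The pals genes belong to the intracellular pathogen response, and pals-22 and pals-25 regulate it. Of 15 tested, 9 were higher and none lower (median 1.21), against 6 higher in control RNAi, and the 6 were all among the 9. For pals-24 the values were 735, 478 and 716 on PA14, against 160, 124 and 180 on E. coli (limma, adjusted p = 0.000556), and for pals-6 101, 104 and 94 on PA14, against 5, 3 and 14 on E. coli (limma, adjusted p = 0.00103). In both, all PA14 libraries lay above all E. coli libraries. The regulators pals-22 (0.74) and pals-25 (0.48) were not called, and pals-16 had a difference below 0 (-1.66, limma, adjusted p = 0.0322, up to 0.0961 without 1 library). F-box A proteins are adaptors of ubiquitin ligases. Of 81 tested, 30 were higher and 4 lower (median 0.79), against 43 and 5 in control RNAi, and 29 were higher in both. With values of 208, 116 and 173 on PA14, against 1, 1 and 5 on E. coli, fbxa-163 was among the 12 largest increases (56.2-fold, limma, adjusted p = 0.000293). For fbxa-59 the values were 361, 216 and 304 on PA14, against 79, 53 and 67 on E. coli, and for fbxa-60 372, 263 and 340 on PA14, against 95, 65 and 103 on E. coli (limma, adjusted p = 0.000624 and 0.000724). Groups did not overlap in any of the 3, which for fbxa-163 was a condition of its place among the largest increases. The difference passed for fbxa-105 and fbxa-82 (-2.22 and -1.52), each lost without some of the libraries (adjusted p up to 0.0911 and 0.115), and the call of fbxa-105 (log2 1.003) was at the 2-fold threshold and lost without any 1 of 4 libraries (adjusted p up to 0.0809).

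Families of enzymes that modify foreign compounds held calls in both directions, except for the cytochrome P450 and flavin monooxygenase genes. Of all genes tested, 7.78% were higher and 12.9% lower. Of 32 cytochrome P450 genes, which oxidize such compounds, 10 were higher and none lower (7 to 15 when each library was left out), and 6 of the 10 were higher in control RNAi. The gene cyp-13A5 had 125, 100 and 92 on PA14, against 3, 3 and 31 on E. coli, above E. coli in every library (limma, adjusted p = 0.0112). The values of cyp-33C8 were 135, 111 and 107 on PA14, against 41, 43 and 31 on E. coli, in control RNAi 43, 32 and 42 on PA14, against 30, 45 and 32 on E. coli. It rose here only, and the difference of 1.46 passed (limma, adjusted p = 0.0241), as did that of cyp-29A3 (1.27, adjusted p = 0.0219), although both were lost without some libraries (up to 0.0676 and 0.0683). UDP-glucuronosyltransferases, which conjugate sugars to such compounds, gave 9 higher and 5 lower of 43, with 10 lower without E. coli replicate 3. The values of ugt-31 were 93, 69 and 133 on PA14, against 14, 13 and 13 on E. coli and those of ugt-18 93, 66 and 103 on PA14, against 6, 4 and 26 on E. coli (limma, adjusted p = 0.000349 and 0.00767). PA14 lay above E. coli throughout in both genes. The differences of ugt-9 and ugt-1 lay above 0 (2.12 and 1.83) and were lost without some libraries (adjusted p up to 0.0758 and 0.138), and so was the call of ugt-9 here (up to 0.0592). Glutathione S-transferases gave 7 higher and 5 lower of 31. Among these gst-38 had 2275, 754 and 2053 on PA14, against 199, 79 and 43 on E. coli (17.1-fold, limma, adjusted p = 0.00306) and gst-5 1808, 1327 and 1682 on PA14, against 587, 502 and 434 on E. coli (3.16-fold, limma, adjusted p = 0.000407). In the other direction gsto-1 had 69, 73 and 37 on PA14, against 546, 812 and 293 on E. coli, and none of these pairs of groups overlapped. The difference of gst-28 lay below 0 (-1.46, limma, adjusted p = 0.0463) and was lost without any 1 of 10 libraries (up to 0.132). The lower count of the family was 3 without PA14 replicate 3 or E. coli replicate 1 or 2. None of 4 flavin monooxygenase genes was called (limma, 2 at an unadjusted p under 0.05), although 1 was higher without PA14 replicate 2 or E. coli replicate 1 or 2 and 1 lower without E. coli replicate 3. Of 136 nuclear hormone receptor genes, 7 were higher and 3 lower (26 and 5 in control RNAi), with 3 higher without PA14 replicate 1 or 3, 4 without E. coli replicate 2 and 12 without E. coli replicate 3, and 5 lower without E. coli replicate 1. In 4 of them the difference from control RNAi lay below 0 and in none above. These were nhr-168 (-2.31), nhr-99 (-2.06), nhr-50 (-2.03) and nhr-55 (-1.84), all of which were called higher in control RNAi and not called here. Each difference was lost without some libraries (limma, adjusted p up to 0.0607 for nhr-168 and 0.136 for nhr-50).

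Metal genes changed in both directions: of 10 tested, 3 were higher (mtl-1, smf-1 and cdr-1) and 3 lower (mtl-2, hrg-1 and hrg-4). The metallothionein gene mtl-1 had 5359, 4625 and 5149 on PA14, against 71, 70 and 1024 on E. coli, higher by 4.86 on the log2 scale (limma, adjusted p = 0.00967), and E. coli replicate 3 lay above the other E. coli replicates. The heme transporter gene hrg-1 had 31, 38 and 13 on PA14, against 253, 630 and 387 on E. coli (limma, adjusted p = 0.000979). For hrg-4, another one, the values were 10, 11 and 10 on PA14, against 224, 368 and 93 on E. coli (limma, adjusted p = 0.000781). These groups were far apart. The second metallothionein gene, mtl-2, fell 2.74-fold, while smf-1, a manganese transporter gene, rose 2.24-fold. The ferritin gene ftn-1 spread too widely within either group to be called (95, 539 and 2288 on PA14, against 3, 38 and 998 on E. coli, adjusted p = 0.264).

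Of the stress programmes, cytosolic heat shock genes were called here and not in control RNAi. Of 15 tested, 6 were higher and none lower, all of them hsp-16 genes for small heat shock proteins, against 0 called in control RNAi. The gene hsp-16.2 had 684, 648 and 728 on PA14, against 228, 154 and 187 on E. coli (3.65-fold, limma, adjusted p = 0.000289). In control RNAi it had 140, 310 and 149 on PA14, against 120, 321 and 382 on E. coli, where the groups overlapped. The values of hsp-16.41 were 733, 1003 and 860 on PA14, against 348, 214 and 307 on E. coli (limma, adjusted p = 0.00126), and the other 4 are copies of hsp-16.1 and hsp-16.48, which share reads, with log2 fold changes from 1.38 to 1.46. The test of the difference passed for none of the 15 heat shock genes (limma, 7 at an unadjusted p under 0.05, hsp-16.2: 2.26, limma, adjusted p = 0.0940). Neither hsp-70 (0.31) nor the regulator hsf-1 (-0.05) was called.

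Few ER folding genes were called. Of 24 tested, 1 was higher, 1 lower and 22 lay above 0 (median 0.29, against 0.07 for all genes). Among all genes tested, 7.78% were called higher and 12.9% lower. The ER chaperone gene enpl-1, a relative of mammalian GRP94, had 3729, 3793 and 4312 on PA14, against 1843, 1835 and 1534 on E. coli (2.27-fold, SE 0.11 on the log2 scale, limma, adjusted p = 0.000381). The BiP gene hsp-4 had 8158, 8413 and 9999 on PA14, against 7193, 6528 and 3507 on E. coli, in which E. coli replicate 3 was the lowest. PA14 lay above E. coli in every library, but hsp-4 was not called (0.69, adjusted p = 0.0906). The study reported the other direction for a GFP reporter of hsp-4, which PA14 lowered substantially in worms with stt-3 RNAi. That is fluorescence of a reporter protein and not the mRNA given here. The second BiP gene, hsp-3, had 1824, 2047 and 2329 on PA14, against 2006, 1833 and 1185 on E. coli and likewise was not called (0.33). In control RNAi the means of hsp-4 were 1440 on PA14 and 1245 on E. coli, those of hsp-3 687 and 615, and those of enpl-1 1059 and 718. For each of these genes the labelled E. coli libraries already lay above every control RNAi library. This contrast on E. coli was not tested here. Calreticulin (crt-1, 0.65), pdi-3 (0.69), the UPR factor xbp-1 (0.28) and its activator ire-1 (0.10) were all under 2-fold. The lower gene was dnj-27, a J-domain protein gene, with 70, 52 and 63 on PA14, against 192, 162 and 81 on E. coli, whose call was lost without any 1 of the libraries other than E. coli replicate 3 (limma, adjusted p up to 0.0975).

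Other stress lists gave few calls. Of 13 antioxidant genes the catalases ctl-1 and ctl-3, which share reads, were higher (1.07 and 1.04), and these calls were lost without PA14 replicate 2 or 3 or E. coli replicate 1 or 2. The superoxide dismutase gene sod-3 had 79, 91 and 81 on PA14, against 40, 47 and 48 on E. coli, under 2-fold here, while its means in control RNAi were 72.7 ± 18.6 on PA14 and 97.0 ± 19.2 on E. coli (SD, n = 3 each). These changes run in opposite directions, with a difference of 1.305 (limma, adjusted p = 0.0335, lost without any 1 of 9 libraries, up to 0.107). Of 10 genes of the hypoxia, sulfide or cyanide response rhy-1 was lower (-1.92) and none higher, and none of 11 mitochondrial UPR genes or 33 proteasome genes was called (limma, 5 and 8 at an unadjusted p under 0.05). Of 78 ribosomal protein genes only rpl-42 was called lower (5, 10 and 7 on PA14, against 46, 37 and 27 on E. coli), while 77 of the 78 lay below 0 (median -0.41) as deposited and 31 of them after quantile normalization (median 0.02).

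For several digestive and lysosomal hydrolases of the intestine the change on PA14 lay below that of control RNAi. Of 11 aspartic protease genes, 1 was higher (2 without E. coli replicate 1) and 3 lower, against 6 higher and 2 lower in control RNAi, and in 6 the difference lay below 0. Of 7 cathepsin B-like (cpr) protease genes, 1 was higher and 4 lower, against 2 and 2, with 3 differences below 0. The gene asp-2 had 222, 231 and 247 on PA14, against 802, 779 and 837 on E. coli, in control RNAi 2592, 1756 and 2228 on PA14, against 1434, 1641 and 1527 on E. coli. It fell 3.45-fold here with hardly any spread (limma, adjusted p = 0.000282), and the difference was -2.28 (limma, adjusted p = 0.000343). For asp-12 the values were 199, 125 and 206 on PA14, against 113, 38 and 94 on E. coli, in control RNAi 939, 550 and 827 on PA14, against 17, 19 and 28 on E. coli. PA14 lay above E. coli in every library of both RNAi groups, but the rise was called in control RNAi only (difference -3.90, adjusted p = 0.00633). The differences of asp-5, asp-6, asp-1 and asp-3 were -2.54, -2.45, -1.65 and -1.55, and those of asp-1 and asp-3 were lost without some libraries (adjusted p up to 0.0580 and 0.0644). The gene asp-14 still rose, with 2193, 1672 and 2964 on PA14, against 576, 357 and 448 on E. coli (4.90-fold, limma, adjusted p = 0.000687), and asp-13 fell, with 4, 7 and 2 on PA14, against 38, 74 and 160 on E. coli.

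The cathepsin genes followed the same split. The gene cpr-3 had 1808, 1310 and 2243 on PA14, against 160, 70 and 107 on E. coli, a 16.3-fold increase (limma, adjusted p = 0.000289), and was higher in control RNAi as well (4.28). By contrast cpr-1 had 356, 553 and 471 on PA14, against 2323, 2548 and 4550 on E. coli, in control RNAi 1688, 1714 and 2685 on PA14, against 1165, 1632 and 1855 on E. coli. Its PA14 libraries were the lowest of all 12 (difference -3.10, limma, adjusted p = 0.00504). So were those of cpr-4, with 371, 430 and 421 on PA14, against 1384, 1649 and 2564 on E. coli (difference -2.23, limma, adjusted p = 0.00854). The gene cpr-9 was not called here (-0.35) and had a difference of -1.82, while cpr-5, with 136, 131 and 72 on PA14, against 2879, 3783 and 1464 on E. coli, fell in both RNAi groups. Lysosomal lipases release fatty acids from stored lipid. Of 4 genes tested, which include the regulator hlh-30, lipl-1 and lipl-5 were lower and none higher (1 without E. coli replicate 3). The values of lipl-5 were 213, 256 and 315 on PA14, against 945, 1104 and 1363 on E. coli, in control RNAi 1476, 1364 and 1787 on PA14, against 828, 1522 and 1663 on E. coli. Only the labelled PA14 libraries stood out (4.35-fold lower, difference -2.38, limma, adjusted p = 0.00854). For lipl-1, with 49, 35 and 27 on PA14, against 132, 66 and 102 on E. coli, the difference was -3.29 (limma, adjusted p = 0.00918). Of 7 oac genes, which encode acyltransferase-like proteins, 1 was higher and 3 lower, against 4 and 1 in control RNAi, and 2 were higher without PA14 replicate 2 or E. coli replicate 1. The highest change was that of oac-32 (3.89), which was higher in control RNAi too (2.04). By contrast oac-20 is listed at 0 in each of the 3 PA14 libraries, so that no fold is given, and had 21, 16 and 28 on E. coli. In control RNAi it had 183, 65 and 80 on PA14, against 26, 57 and 32 on E. coli, and the difference of -5.89, which depends on the pseudocount, passed (limma, adjusted p = 0.000938).

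Yolk proteins are made in the intestine and taken up by oocytes. Of 6 vitellogenin genes and the yolk receptor gene rme-2, 3 were lower and none higher, against 1 lower in control RNAi, and 4 differences lay below 0. The values of vit-1 were 46, 67 and 48 on PA14, against 1981, 1957 and 932 on E. coli, a 28.5-fold decrease (limma, adjusted p = 0.000282). Those of vit-3 were 464, 592 and 519 on PA14, against 3931, 4239 and 3261 on E. coli, and those of vit-4 681, 793 and 763 on PA14, against 5226, 4951 and 3715 on E. coli (7.24-fold and 6.15-fold lower, limma, adjusted p = 0.000282 and 0.000282). These PA14 libraries lay far below every other library of the series. In control RNAi the means of vit-3 were 9426 ± 2560.2 on PA14 and 12169 ± 1479.5 on E. coli (SD, n = 3 each), those of vit-4 10078 ± 2359.9 on PA14 and 11272 ± 1672 on E. coli (SD, n = 3 each). The differences were -2.41, -2.46, -2.44 and, for vit-5, -1.84 (limma, adjusted p = 0.0109, 0.00200, 0.00177 and 0.00259). Because vit-3, vit-4 and vit-5 are close in sequence, reads may be divided between them. The gene vit-6 had 15109, 15905 and 19138 on PA14, against 17062, 15118 and 19186 on E. coli, which overlapped (log2 -0.04, adjusted p = 0.870), and vit-2 (-0.17) and rme-2 (0.04) were not called either.

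Some intestinal markers moved with these genes. The value of ifb-2 was 212, 177 and 222 on PA14, against 536, 598 and 501 on E. coli, in control RNAi 998, 632 and 867 on PA14, against 539, 799 and 546 on E. coli (difference -1.82, limma, adjusted p = 0.00779), and that of vha-6, a subunit of the intestinal proton pump, was 308, 281 and 332 on PA14, against 599, 502 and 429 on E. coli (difference -1.48, adjusted p = 0.00779). The other 4 were not called and had no difference that passed: ges-1 (0.29), elt-2 (0.13), act-5 (-0.26) and pept-1 (-0.87). The whole list summed to 2433 to 3234 on PA14 and 2440 to 5344 on E. coli in the labelled libraries, and to 5314 to 8949 on PA14 and 4734 to 7098 on E. coli in control RNAi. In all of these sums act-5 held the largest part. The part of such markers in the changes of hydrolase and yolk genes was not tested. None of 5 GATA factor genes, which include elt-2, was called (limma, 1 at an unadjusted p under 0.05).

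**Figure D3:**
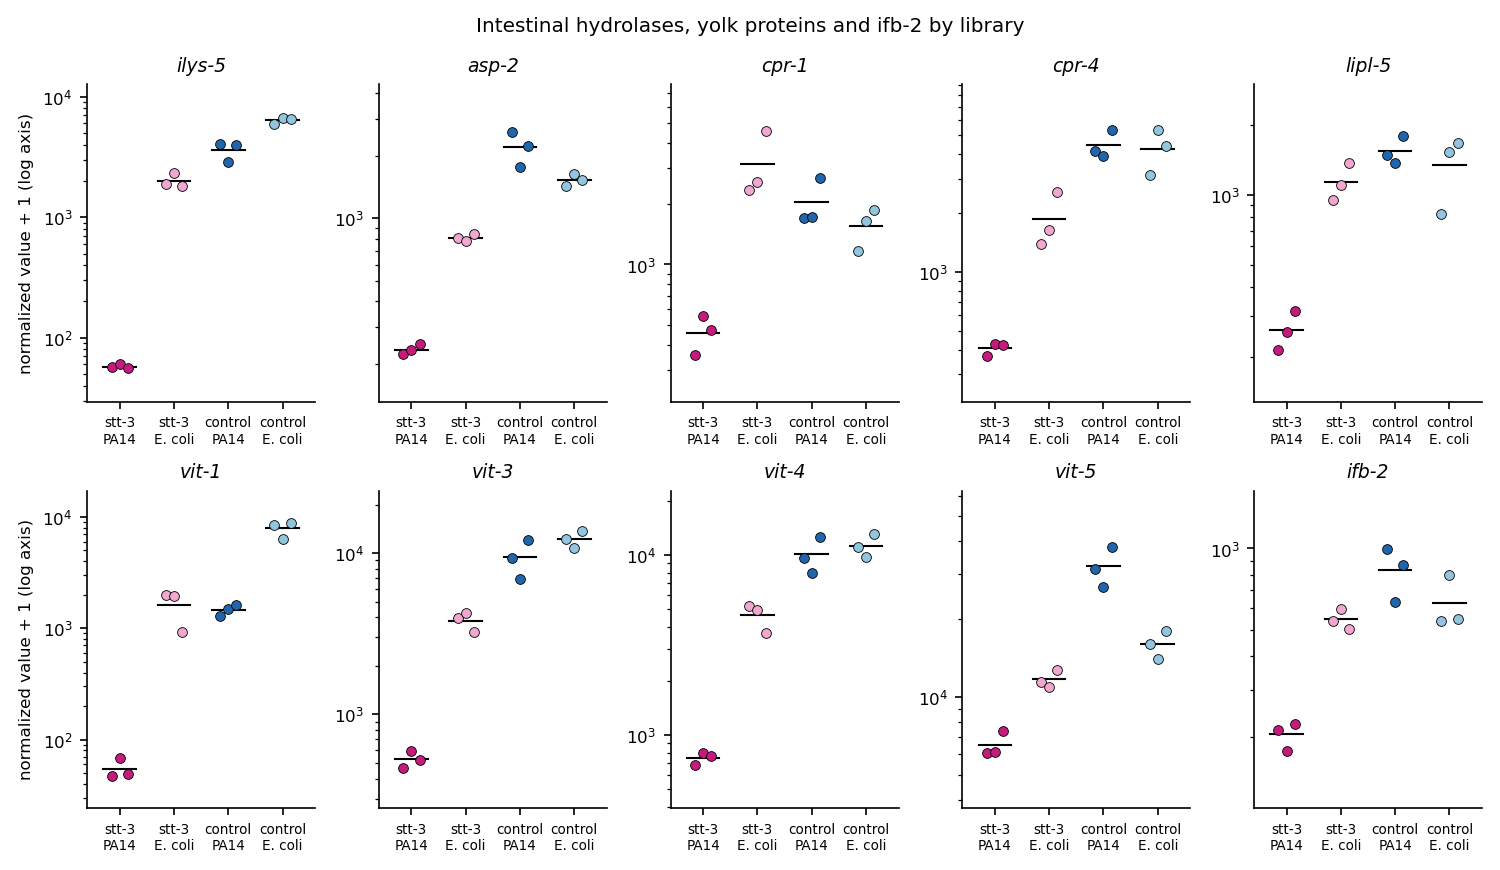
Normalized value + 1 in each library (log axis) for 5 hydrolase genes, 4 vitellogenin genes and ifb-2, with the 3 libraries of each group as points and their mean as a line. In each panel the PA14 libraries labelled stt-3 RNAi are the lowest of the 4 groups, most clearly for ilys-5 (55 to 59) and vit-1 (46 to 67).

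Genes of propionate and methionine metabolism are known to follow the vitamin B12 content of the bacteria eaten. Of 12 propionate genes, 3 were lower and none higher, against 4 lower in control RNAi. The acyl-CoA dehydrogenase gene acdh-1, the first step of the propionate shunt, had 2, 4 and 2 on PA14, against 355, 1745 and 221 on E. coli, the largest decrease named here (145-fold, limma, adjusted p = 0.000556). The shunt gene hphd-1 had 80, 113 and 90 on PA14, against 320, 554 and 331 on E. coli (limma, adjusted p = 0.000920). PA14 lay below E. coli in each library of both, which for acdh-1 was a condition of its place among the largest decreases. The regulator nhr-68 was just past 2-fold (-1.03), and under it without any 1 of 3 libraries (-0.94). Of 13 genes of the methionine and phosphatidylcholine cycle, 4 were lower here and in control RNAi. These were nhr-114, with 36, 39 and 33 on PA14, against 190, 235 and 80 on E. coli, sams-5 (-2.77), sams-1 (-1.71) and pmt-2 (-1.16). The calls of sams-1 and pmt-2 were lost without any 1 of the libraries other than E. coli replicate 3 (limma, adjusted p up to 0.104 and 0.0760), which left 2. No difference from control RNAi passed in either list (limma, 2 of 12 and 1 of 13 at an unadjusted p under 0.05).

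Of 17 desaturation and elongation genes, 2 were lower, fat-7 and elo-6 (-1.16), and none higher, with 4 lower without E. coli replicate 3 and 1 without any 1 of the others. The stearoyl-CoA desaturase gene fat-7 had 7, 9 and 14 on PA14, against 113, 238 and 101 on E. coli (13.2-fold lower, limma, adjusted p = 0.000561). The delta-6 desaturase gene fat-3 was under 2-fold (-0.72), but opposite to control RNAi (0.75), and the difference of -1.47 passed (limma, adjusted p = 0.00854). A related desaturase gene, fat-2, had 0.81. Of 50 genes of fatty acid activation and oxidation, 2 were higher and 11 lower, with 4 higher without E. coli replicate 3 and 1 without any 1 of the others. The acyl-CoA synthetase gene acs-2 had 5, 9 and 10 on PA14, against 63, 284 and 799 on E. coli, lowest on PA14 in every library (limma, adjusted p = 0.00538). Of 11 insulin signalling genes ins-11 (2.80) and akt-2 (1.24) were higher and none lower, and none of 30 flp neuropeptide genes was called (limma, 0 at an unadjusted p under 0.05).

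Sperm genes fell together. All 30 major sperm protein genes tested were lower, with log2 fold changes from -4.42 to -3.12 and a median of -3.69 (-3.76 in control RNAi), and 24 of 31 spe and ssp genes were lower (median -2.64). All msp genes stayed lower without each library in turn. Near-identical copies of msp and ssp genes share reads, so that single members are uncertain. The value of msp-31 was 435, 633 and 437 on PA14, against 7426, 7365 and 4375 on E. coli, that of msp-3 151, 219 and 146 on PA14, against 2978, 2829 and 1702 on E. coli, and that of gsp-3, a sperm phosphatase gene, 42, 61 and 44 on PA14, against 663, 681 and 398 on E. coli. Each PA14 library held less than any E. coli library. The paternal-effect gene spe-11 had 32, 37 and 24 on PA14, against 292, 279 and 186 on E. coli (7.88-fold lower, limma, adjusted p = 0.000286). No difference from control RNAi passed for any sperm gene (limma, 0 of 30 and 1 of 31 at an unadjusted p under 0.05).

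Oocyte and germline genes gave no calls. Of 15 oocyte and eggshell genes and 12 genes of germline proliferation and meiosis, none was called (limma, 2 and 5 at an unadjusted p under 0.05), with medians of 0.09 and -0.15. The oocyte maturation gene oma-1 had 693, 739 and 787 on PA14, against 693, 707 and 768 on E. coli, in which the groups overlapped. Of the oocyte list, 1 gene was called higher without PA14 replicate 1 or 2 or E. coli replicate 3. The eggshell genes perm-2 and perm-4 were nearest to the threshold (0.80 and 0.98). The animals had been moved to PA14 or E. coli as L4 larvae, the stage in which hermaphrodites make sperm, and their stage at harvest was not measured in these files.

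Most of the collagen genes tested fell. Of 101 col collagen genes, 74 were lower and 6 higher (median -2.57), against 79 and 5 in control RNAi, and 71 were lower in both. Without E. coli replicate 3, 81 were lower. Those with the largest decreases were col-149, with 19, 13 and 6 on PA14, against 1976, 2896 and 346 on E. coli, and col-133, with 45, 53 and 25 on PA14, against 4103, 5768 and 1548 on E. coli (limma, adjusted p = 0.00111 and 0.000289). In both, E. coli replicate 3 was the lowest of its group and still above every PA14 library. This separation was a condition of their place among the largest decreases. The adult collagen gene col-19 had 4254, 4887 and 3690 on PA14, against 23403, 28279 and 13537 on E. coli (4.89-fold lower), and the abundant col-122 and col-181 were 2.80-fold and 2.97-fold lower. The increases were led by col-74 (WBGene00000650, chrII:5830374-5832022), with 971, 157 and 141 on PA14, against 1, 0 and 1 on E. coli, and col-165, with 997, 135 and 137 on PA14, against 1, 0 and 3 on E. coli. For these, PA14 replicate 1 was several times higher than the other PA14 replicates, and E. coli was at or near 0 (log2 7.46 and 7.05, limma, adjusted p = 0.000549 and 0.00119). The collagen gene col-95 rose 2.39-fold, with 4104, 3972 and 4241 on PA14, against 1579, 1386 and 2314 on E. coli.

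Of 16 furrow, blister and roller collagen genes, whose mutants have misshapen bodies, 5 were higher and 8 lower (median -2.85). In control RNAi 5 were higher and 10 lower (median -4.26). In the labelled libraries the count of lower genes ranged from 4 without PA14 replicate 2 to 10 without E. coli replicate 3. It was 5 without PA14 replicate 3 or E. coli replicate 1. Without PA14 replicate 1 or 2 or E. coli replicate 2, 3 genes were higher. Among the higher ones dpy-17 had 1737, 853 and 830 on PA14, against 65, 22 and 86 on E. coli (21.1-fold, limma, adjusted p = 0.00107). In the other direction dpy-13 had 46, 37 and 28 on PA14, against 1004, 1808 and 244 on E. coli and sqt-1 12, 4 and 6 on PA14, against 191, 527 and 32 on E. coli, and the groups of all 3 genes were apart. The call of sqt-1 was lost without PA14 replicate 2 (limma, adjusted p = 0.0509). The value of sqt-3 was 1531, 439 and 514 on PA14, against 339, 220 and 98 on E. coli, at the edge of the call (adjusted p = 0.0497, up to 0.117 without 1 of 5 libraries). Of 6 moulting genes noah-1 (2.001) and noah-2 (1.58) were higher and mlt-7 (-1.05) lower, and mlt-7 was no longer called without PA14 replicate 2 or 3 or E. coli replicate 2. Of 26 hedgehog-related genes 3 were higher (wrt-10, wrt-1 and wrt-2) and 4 lower, with 1 lower without PA14 replicate 2 or 3 or E. coli replicate 1 or 2, 7 without E. coli replicate 3, and 1 higher without E. coli replicate 2. The values of wrt-10 were 84, 59 and 66 on PA14, against 18, 14 and 17 on E. coli (limma, adjusted p = 0.000381). No difference from control RNAi passed in any of these cuticle lists (limma, 15 of 101 col genes at an unadjusted p under 0.05).

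**Figure D4:**
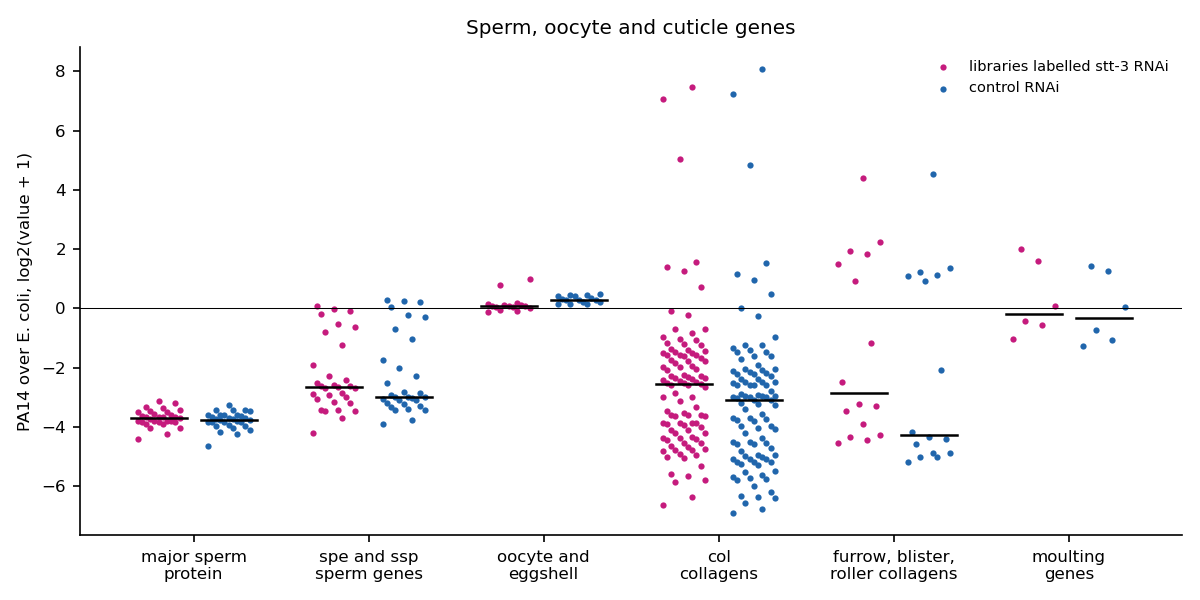
Log2 fold change of PA14 over E. coli for each gene of 6 lists, left in the libraries labelled stt-3 RNAi and right in control RNAi. Points are genes and lines medians, which lie at -3.69 and -3.76 for the major sperm protein genes and at -2.57 and -3.09 for the col collagens, while the oocyte and eggshell genes lie near 0.

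The 12 largest increases with a mean of at least 100 and no overlap between groups held 4 cuticle genes besides fbxa-163 and cld-1. These were col-74, col-165, dpy-14 and cut-3, of which dpy-14, a collagen gene, had 1548, 1160 and 712 on PA14, against 25, 3 and 38 on E. coli and cut-3, a cuticlin gene, 425, 83 and 63 on PA14, against 1, 0 and 1 on E. coli (limma, adjusted p = 0.00175 and 0.000852). The rest were B0024.4, with 847, 402 and 1593 on PA14, against 5, 3 and 9 on E. coli, mtre-1, with 688, 136 and 100 on PA14, against 1, 0 and 3 on E. coli, ZK355.3, with 210, 144 and 92 on PA14, against 0, 1 and 11 on E. coli, and W02D7.11, with 442, 381 and 219 on PA14, against 0, 1 and 72 on E. coli. E. coli replicate 3 held most of the E. coli signal in ZK355.3 and W02D7.11, and the call of W02D7.11 was lost without any other 1 of the libraries (limma, adjusted p up to 0.0729). The noncoding gene rpr-1, the RNA of RNase P, had 385, 127 and 197 on PA14, against 4, 3 and 3 on E. coli (limma, adjusted p = 0.000282). Y51B9A.8, listed at 0 in each of the 3 E. coli libraries, averaged 153 ± 46.5 on PA14 (SD, n = 3), in control RNAi 44, 16 and 29 on PA14, against 1, 2 and 0 on E. coli. Its PA14 values were above those of control RNAi in every library, and the difference of 3.25, which depends on the pseudocount, passed (limma, adjusted p = 0.0291) but was lost without any 1 of 7 libraries (up to 0.0830).

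The 12 largest decreases were acdh-1, 7 col genes (col-149, col-133, col-137, col-161, col-81, col-88 and col-63), argk-1, hrg-7, Y47D7A.15 and C39B5.5. The arginine kinase gene argk-1 had 1, 3 and 0 on PA14, while its mean on E. coli was 175 ± 171 (SD, n = 3) (61.1-fold, limma, adjusted p = 0.00207). The gene hrg-7, which encodes a secreted protease-like protein that signals heme status from the intestine, had 32, 36 and 8 on PA14, against 690, 1565 and 1127 on E. coli (48.1-fold, limma, adjusted p = 0.000574). Every one of the 24 genes was called in the same direction in control RNAi.

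**Figure D5:**
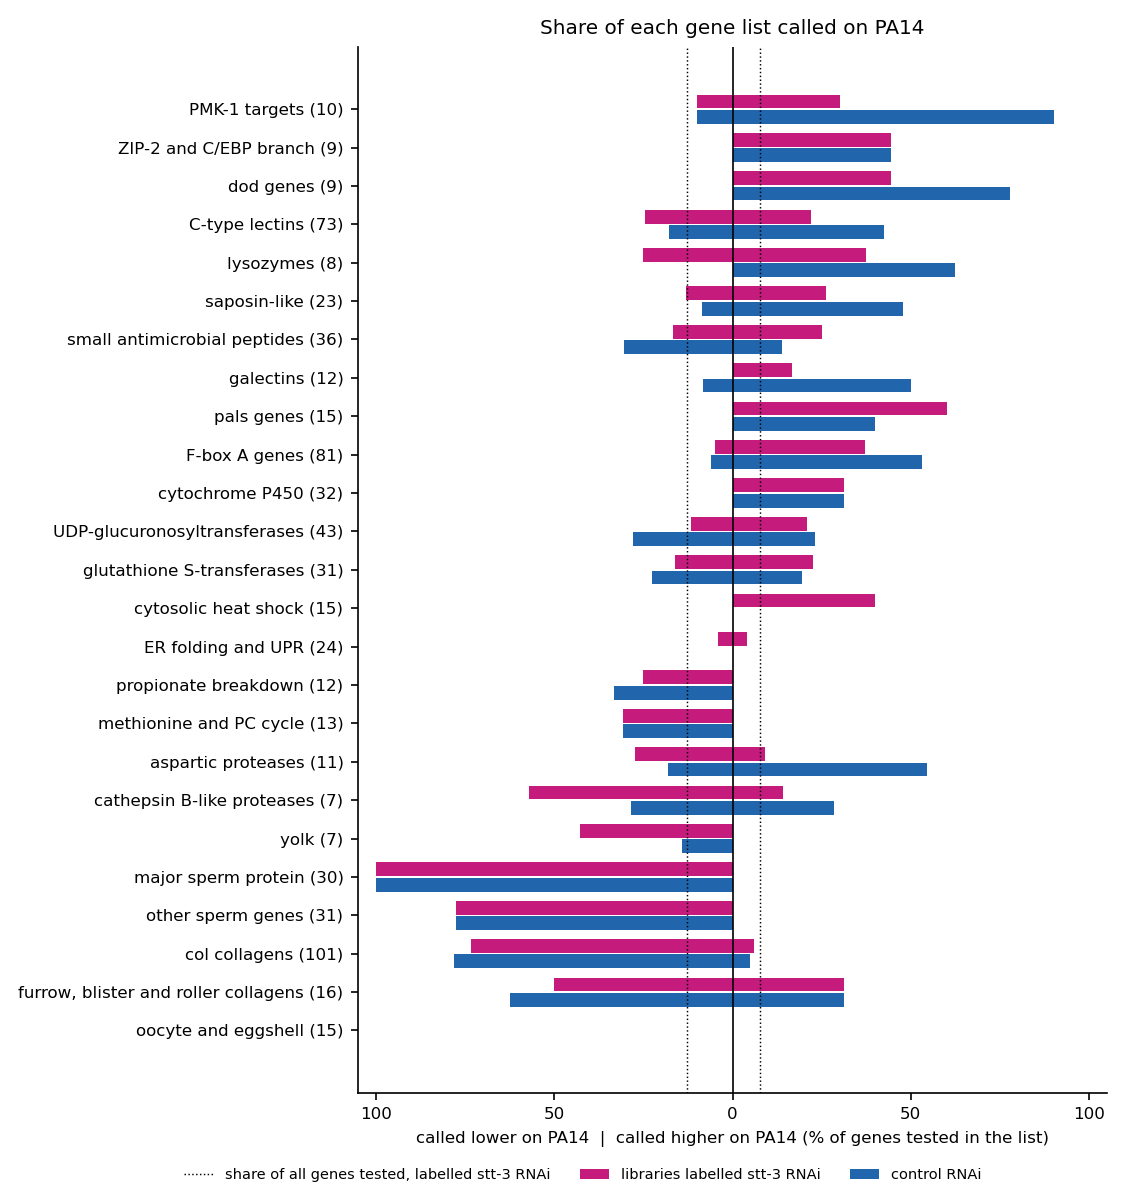
Percent of the tested genes of each list that were called higher (right of 0) or lower (left of 0) on PA14, for the libraries labelled stt-3 RNAi (upper bar of a pair) and control RNAi (lower bar). The number tested stands beside each list, and dotted lines mark the shares of all genes in the labelled libraries, 7.78% higher and 12.9% lower. PMK-1 targets, dod genes, lectins and aspartic proteases have shorter right-hand bars in the labelled libraries, while pals genes, sperm genes and col collagens have bars of about the length in control RNAi or longer. The furrow, blister and roller collagens have a shorter left-hand bar in the labelled libraries (8 of 16 genes, against 10 in control RNAi).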

How the data were processed

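The authors prepared libraries from total RNA of whole C. elegans with a kit that does not mark strand, aligned reads to WBcel235 with HISAT2 2.0.5 and assembled transcripts with StringTie 1.3.3b. Per the submitters' methods, the values were then upper-quartile normalized and adjusted for batches with RUVSeq. The deposited values are whole numbers but no read counts and were treated as a score. Sequencing depth is unknown, so that no counting interval or detection limit was computed.

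Of 17430 genes, 16626 were matched to a symbol. The 12219 genes that reached a value of 10 in 3 or more of the 6 libraries labelled stt-3 RNAi were kept. Values were fitted as log2(value + 1) with limma 3.58.1 in R 4.3.3 with a mean-variance trend, PA14 over E. coli, per RNAi group on its own 6 libraries, and the difference of these changes on all 12. Called genes changed more than 2-fold with a p, adjusted after Benjamini-Hochberg, under 0.05, and differences were called at an adjusted p under 0.05, adjusted over all genes tested. The adjustment made by the authors can lower the spread between replicates.

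Named genes are the 12 largest increases and decreases among called genes with a mean of at least 100 in the higher group and no overlap between groups, members of the gene lists, the OST subunits and genes discussed in the study. The gene lists and members were chosen with earlier results of these data known. The procedure was tested on simulated data. Alternatives were a pseudocount of 5, no filter or a mean of at least 50, median-of-ratios and quantile scaling, no trend, a replicate block, limma treat, all 12 libraries in 1 fit, and leaving out each library. Same-numbered PA14 and E. coli libraries matched each other only in part, and the main fit did not pair them.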

Additional observations from a re-analysis of the deposited data

Results flagged for a closer look

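The results below were singled out because the PA14 change in the libraries labelled stt-3 RNAi differed from that in control RNAi by the test of the difference itself (limma, adjusted p under 0.05). Each value is the log2 fold change of PA14 over E. coli in the labelled libraries minus that in control RNAi, so that a negative value means a lower change in the labelled libraries. Only genes named in the text or in the gene lists are given, and 40 of these 66 genes passed without each of the 12 libraries in turn.

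Among secreted defence genes the differences were -5.47 for sysm-1, -5.26 for dod-22, -4.29 for ilys-5, -3.53 for K08D8.5, -3.41 for C17H12.8, -2.34 for lys-1, -2.22 for lys-8, -1.57 for dod-23, -1.56 for spp-8, -1.26 for spp-4 and -1.24 for spp-14. Among C-type lectins they were -4.68 for clec-70, -3.18 for clec-53, -2.25 for clec-62, -2.20 for clec-85, -1.997 for clec-50, -1.82 for clec-63 and -1.74 for both copies of clec-209.

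Among hydrolases and related enzymes they were -5.89 for oac-20, -3.90 for asp-12, -3.29 for lipl-1, -3.10 for cpr-1, -2.54 for asp-5, -2.45 for asp-6, -2.38 for lipl-5, -2.28 for asp-2, -2.23 for cpr-4, -1.82 for cpr-9, -1.65 for asp-1 and -1.55 for asp-3. Those of asah-1, asah-2, nuc-1, aagr-2 and aagr-1 were -2.98, -2.17, -1.83, -1.82 and -1.76. For the yolk genes vit-3, vit-4, vit-1 and vit-5 the differences were -2.46, -2.44, -2.41 and -1.84, and for the intestinal markers ifb-2 and vha-6 they were -1.82 and -1.48.

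The remaining values below 0 were -2.22 for fbxa-105, -2.13 for nlp-28, -1.66 for pals-16, -1.52 for fbxa-82, -1.47 for fat-3 and -1.46 for gst-28. Among nuclear hormone receptor genes they were -2.31 for nhr-168, -2.06 for nhr-99, -2.03 for nhr-50 and -1.84 for nhr-55, and among other genes called in opposite directions -3.81 for Y39B6A.1, -2.74 for T26C12.2 and -2.38 for E04F6.15. Above 0 were glrx-3 (0.72), fpn-1.1 (1.15), cyp-29A3 (1.27), sod-3 (1.305), cyp-33C8 (1.46), ugt-1 (1.83), nlp-27 (2.04), ugt-9 (2.12), hen-1 (2.33), ora-1 (2.75) and Y51B9A.8 (3.25). The values of oac-20 and Y51B9A.8 depend on the pseudocount, since a group of each is listed at 0.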

How the results depend on the processing

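The direction of every called gene named in the text was kept under all alternatives. Among single genes under settings other than leaving out a library, 1750 log2 fold changes (each gene and setting counted once) kept their side of the threshold, 71 were no longer called and 18 were newly called, and the differences kept theirs in 424 and lost it in 22. Without filter, 1638 genes were higher, with 17374 genes tested. With a mean of at least 50, which left 7641 genes, 442 were higher and 660 lower, and 348 and 606 in both RNAi groups. With limma treat, 288 were higher, and 207 in both RNAi groups. In 1 fit over all 12 libraries, 985 were higher and 1610 lower. Leaving out each library gave 730 to 1100 higher and 1413 to 1794 lower genes, 579 to 805 and 1326 to 1606 in both RNAi groups, and 13 to 77 differences above and 76 to 215 below 0. In control RNAi the counts of differences above and below 0 were 26 and 94 without E. coli replicate 1, 23 and 85 without PA14 replicate 1 and 20 and 76 without PA14 replicate 3, and in the labelled libraries 26 and 97 without PA14 replicate 1, 13 and 81 without PA14 replicate 2 and 22 above 0 without E. coli replicate 1. The cause was not tested.

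Genes whose log2 fold change turned were all uncalled. With quantile normalization the values were act-5 0.0015, asp-6 0.059, hsf-1 0.011, vit-2 0.33, vit-6 0.49, nhr-99 0.0030 and ribo-1 0.14. With median-of-ratios scaling they were asp-1 -0.063, asp-3 -0.061, oma-1 -0.033, nhr-168 -0.044 and rme-2 -0.021. Leaving out each library gave -0.72 to 0.10 for act-5, -0.15 to 0.10 for asp-1, -0.074 to 0.067 for asp-3, -0.41 to 0.045 for asp-6, -0.13 to 0.069 for hsf-1, -0.38 to 0.018 for nlp-29, -0.013 to 0.079 for oma-1, -0.14 to 0.050 for vit-6, -0.41 to 0.087 for K08D8.5, -0.033 to 1.03 for sysm-1, -0.49 to 0.20 for C17H12.8, -0.33 to 0.17 for nhr-99, -0.10 to 0.21 for nhr-168 and -0.10 to 0.0050 for ribo-1.

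The replicate block changed the counts to 947 higher and 1625 lower genes, 68 and 207 differences and 709 and 1502 in both RNAi groups. Deviations of same-numbered PA14 and E. coli libraries correlated at 0.2344, -0.06225 and 0.1915. PA14 replicates 1 and 3 correlated best with the E. coli library of the same number, but PA14 replicate 2 did so with E. coli replicate 3 (0.1155). For the PA14 comparison the numbers are thus at most a weak hint of pairing, which the main fit did not use. Between the RNAi groups, same-numbered libraries correlated at 0.5329, 0.3218 and 0.3866 on PA14, each the best match of its library, and at 0.02271, 0.3746 and 0.4834 on E. coli, where replicate 1 of the labelled libraries correlated best with control RNAi replicate 2 (0.2715). The replicate numbers are thus a partial hint of pairing for the test of the difference, in which the block gave the larger counts above. Sequencing depth is unknown, which limits any statement on genes with low values.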

Other observations

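Several lysosomal enzyme genes outside the gene lists had a PA14 change below that of control RNAi, and they were chosen after their values were seen. The acid ceramidase genes asah-1 and asah-2 were called in opposite directions in the RNAi groups. The values of asah-1 were 161, 178 and 141 on PA14, against 459, 290 and 570 on E. coli, in control RNAi 1888, 1506 and 2015 on PA14, against 712, 539 and 561 on E. coli. PA14 lay below E. coli in all labelled libraries and above it in all control RNAi libraries (difference -2.98, limma, adjusted p = 0.00177). For asah-2 they were 94, 102 and 105 on PA14, against 192, 169 and 262 on E. coli, in control RNAi 812, 595 and 835 on PA14, against 285, 378 and 341 on E. coli (difference -2.17, limma, adjusted p = 0.00261), and its call in the labelled libraries was lost without any 1 of 2 libraries (adjusted p up to 0.0204, smallest log2 fold change -0.84). The acid alpha-glucosidase-related gene aagr-1 had 102, 112 and 120 on PA14, against 188, 186 and 259 on E. coli (difference -1.76, limma, adjusted p = 0.00408). Its relative aagr-2 had 155, 147 and 173 on PA14, against 284, 260 and 297 on E. coli (difference -1.82, limma, adjusted p = 0.000456). The value of nuc-1, a DNase II gene of the gut and of engulfing cells, was 115, 113 and 106 on PA14, against 184, 174 and 229 on E. coli, in control RNAi 1203, 768 and 1089 on PA14, against 495, 472 and 503 on E. coli (difference -1.83, limma, adjusted p = 0.00291). The intestinal marker sums given with the hydrolases apply here too, and their part in these values was not tested.

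A few genes, likewise chosen after their values were seen, changed in the other direction. The ferroportin gene fpn-1.1, an iron exporter, had 269, 233 and 218 on PA14, against 97, 89 and 77 on E. coli, in control RNAi 144, 116 and 126 on PA14, against 109, 111 and 95 on E. coli (difference 1.15, limma, adjusted p = 0.00854). The glutaredoxin gene glrx-3 had 892, 916 and 862 on PA14, against 583, 622 and 616 on E. coli, in control RNAi 610, 611 and 587 on PA14, against 724, 652 and 663 on E. coli (difference 0.72, limma, adjusted p = 0.00333). For hen-1, a secreted protein gene with an LDL receptor motif, the values were 67, 60 and 55 on PA14, against 4, 6 and 9 on E. coli, in control RNAi 19, 12 and 12 on PA14, against 8, 8 and 7 on E. coli (difference 2.33, limma, adjusted p = 0.0109). The values of ora-1, a gene first found as an Onchocerca-related antigen, were 73, 45 and 40 on PA14, against 26, 46 and 29 on E. coli, in control RNAi 6, 9 and 6 on PA14, against 30, 40 and 31 on E. coli (difference 2.75, limma, adjusted p = 0.00685).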
